A study of Mus musculus with 4 samples.

Results

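The 39 genes described here encode enzymes, cofactors and membrane proteins of the lysosome: 9 proteases, 11 glycosidases, 5 sulfatases, 4 lipid enzymes, 4 soluble cofactors and 6 membrane proteins. They were found by gene symbol among the 55228 genes of the deposited count table, and each of the 39 was among the 16639 genes with enough counts to be tested. The members had been put together with earlier results of these counts in view, so their difference between genotypes is given as a description and supports nothing beyond itself.

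The RNA was that of rib cartilage cells from E17.5 embryos of C57BL/6 mice. At that age bone is taking the place of part of the growing cartilage. 2 libraries were labelled Trim28 KO and 2 were labelled WT, the wild type of the same strain and age. TRIM28 silences chromatin where KRAB zinc finger proteins recruit it. The labels say nothing of the deletion itself, of any Cre driver, of litter or batch, or of whether each library is a separate embryo. P-values therefore measure only the spread between these libraries, which may be technical.

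The lysosome is the acidic organelle in which cells break down proteins, glycans and lipids taken up from outside or delivered by autophagy. Its soluble enzymes are made in the endoplasmic reticulum, tagged with mannose 6-phosphate in the Golgi and carried to the organelle by receptors that bind the tag. In cartilage, chondrocytes use lysosomal glycosidases and sulfatases to break down the glycosaminoglycan chains of the matrix, and inherited loss of several of these enzymes in people causes mucopolysaccharidoses, several with skeletal disease. Many lysosomal genes are known targets of the transcription factors TFEB and TFE3, which bind an E-box, CACGTG, most of all within a longer sequence known as the CLEAR element.

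The promoter of Lamp1, the most abundant membrane protein gene of the group by level per length, held the densest run of such E-boxes among the members. The sequence is RefSeq's on mouse build GRCm38.p6, the 100 bases just before the annotated start, in lower case with each CACGTG in capitals.
Lamp1 (chr8:13159061-13159160, plus strand): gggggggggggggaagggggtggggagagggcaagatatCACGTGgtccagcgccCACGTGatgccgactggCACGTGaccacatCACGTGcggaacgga

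An E-box with the longer flank, GTCACGTG on either strand, is shown for 6 members called higher in Trim28 KO (proteases, glycosidases and sulfatases) and then for 3 that were not called (Ctsa, Glb1 and Cln3), so that both can be compared. Each line is 30 bases read along the strand of the gene with the E-box in capitals.
Ctsd (chr7:142387908-142387937, minus strand): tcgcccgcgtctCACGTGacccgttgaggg
Lgmn (chr12:102439124-102439153, minus strand): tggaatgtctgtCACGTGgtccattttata
Gla (chrX:134601182-134601211, minus strand): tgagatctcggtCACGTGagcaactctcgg
Naglu (chr11:101070009-101070038, plus strand): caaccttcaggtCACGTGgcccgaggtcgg
Sgsh (chr11:119355522-119355551, minus strand): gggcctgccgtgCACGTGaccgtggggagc
Arsa (chr15:89477423-89477452, minus strand): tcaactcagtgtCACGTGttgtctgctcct
Ctsa (chr2:164833749-164833778, plus strand): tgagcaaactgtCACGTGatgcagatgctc
Glb1 (chr9:114401018-114401047, plus strand): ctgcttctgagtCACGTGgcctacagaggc
Cln3 (chr7:126583340-126583369, minus strand): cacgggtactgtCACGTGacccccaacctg

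RefSeq windows of 300 bases (250 before the start and 50 after it) were at hand for 34 of the 39 members, the others being Ctsb, Ctsh, Galns, Asah1 and Npc1. CACGTG, which reads the same on both strands, occurred in 12 of the 34 windows (35.3%), against 1292 of the 11299 tested genes with a window (11.4%) and 7.15% of all mouse windows. The flanked form GTCACGTG, read on both strands and always containing a CACGTG, occurred in 10 of the 34 (29.4%), against 4.54% of tested genes and 2.25% of all windows. Among the 20 members with a window that were called higher in Trim28 KO, 9 held CACGTG and 7 the flanked form. Among the 14 others 3 held both. Another form that was searched, TCACGTGA, occurred in 4 of the 34 windows (11.8%), against 2.09% of tested genes. It was in 2 of the 20 members called higher and in 2 of the 14 others. These matches describe letters in a window. They are not measured binding sites, and an absent match says only that the letters are not in that window.

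**Figure D1:**
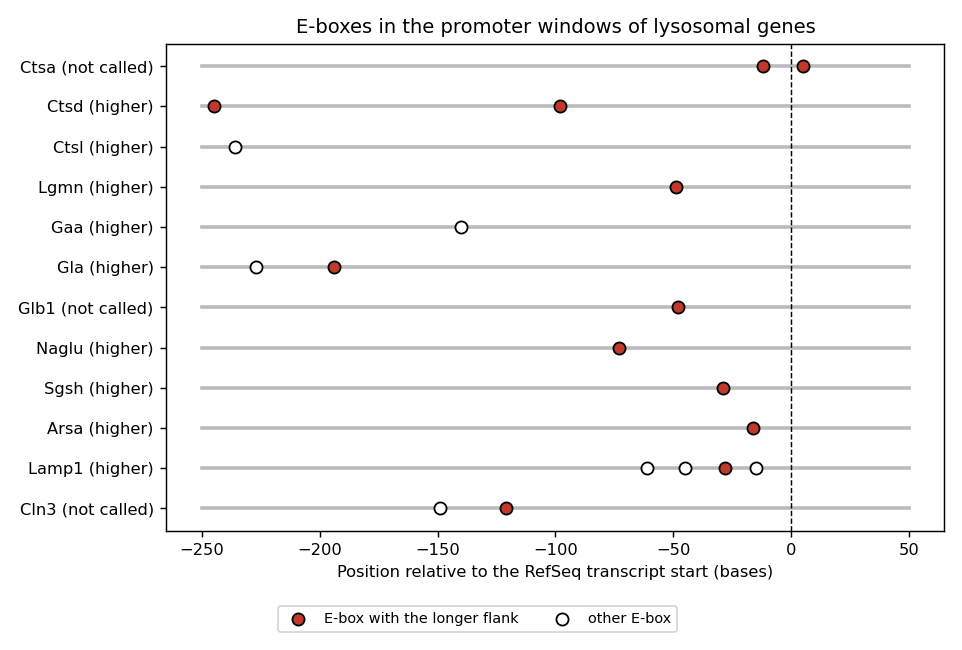
E-boxes in the promoter windows of the 12 members that hold one, with the position of each CACGTG relative to the RefSeq start on the x axis in bases, 1 row per gene and the call of the gene in brackets. Filled circles are E-boxes with the flank GTCACGTG on either strand and open circles are other E-boxes; Lamp1 has 4 close to its start.

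Libraries were of like depth, with total counts from 18616896 to 20082123, so that 3 counts correspond to 0.149 to 0.161 CPM (counts scaled by library size). Trim28, on chromosome 7 (GRCm38 chr7:12999114-13031035), had 51.1 and 54.5 CPM in the Trim28 KO libraries, against 225 and 186 CPM in the WT libraries. Its log2 fold change was -1.96 ± 0.20 (SE; edgeR quasi-likelihood test, adjusted p = 2.28e-07), which is the direction the labels give. Col2a1, the main collagen gene of cartilage, took 5.64% to 7.47% of counts, and of 9 chondrocyte markers 1, Cnmd, was lower and the others did not pass the test (none was lower without Trim28 KO 1, and 2 were without Trim28 KO 2). Over all genes 1438 were higher and 1460 lower in Trim28 KO, and the median log2 fold change was -0.02.

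Of the 39 members 21 were higher in Trim28 KO, 1 was lower and 17 did not pass the test, while 8.64% of all tested genes were called higher and 8.77% lower. Their median log2 fold change was 0.70, with a range of -1.08 to 1.84, and 35 were above 0, as were 48.1% of all tested genes. Both Trim28 KO libraries lay above both WT libraries for 32 members, a pattern seen in 28.3% of tested genes. Both lay below for 4 members, Ctsz, Ctsh, Ids and Gm2a, as in 29.7% of tested genes, and the genotypes overlapped for Glb1, Ppt1 and Lipa. Summed over members, the CPM came to 8021 and 7812 in the Trim28 KO libraries and 5045 and 4975 in the WT libraries. The number called higher was 14 without Trim28 KO 1, 17 without Trim28 KO 2, 18 without WT 2 and 20 without WT 1, and Ctsh was called lower each time. In bulk RNA, a different number of cells of a type and a different amount of RNA per cell cannot be told apart.

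**Figure D2:**
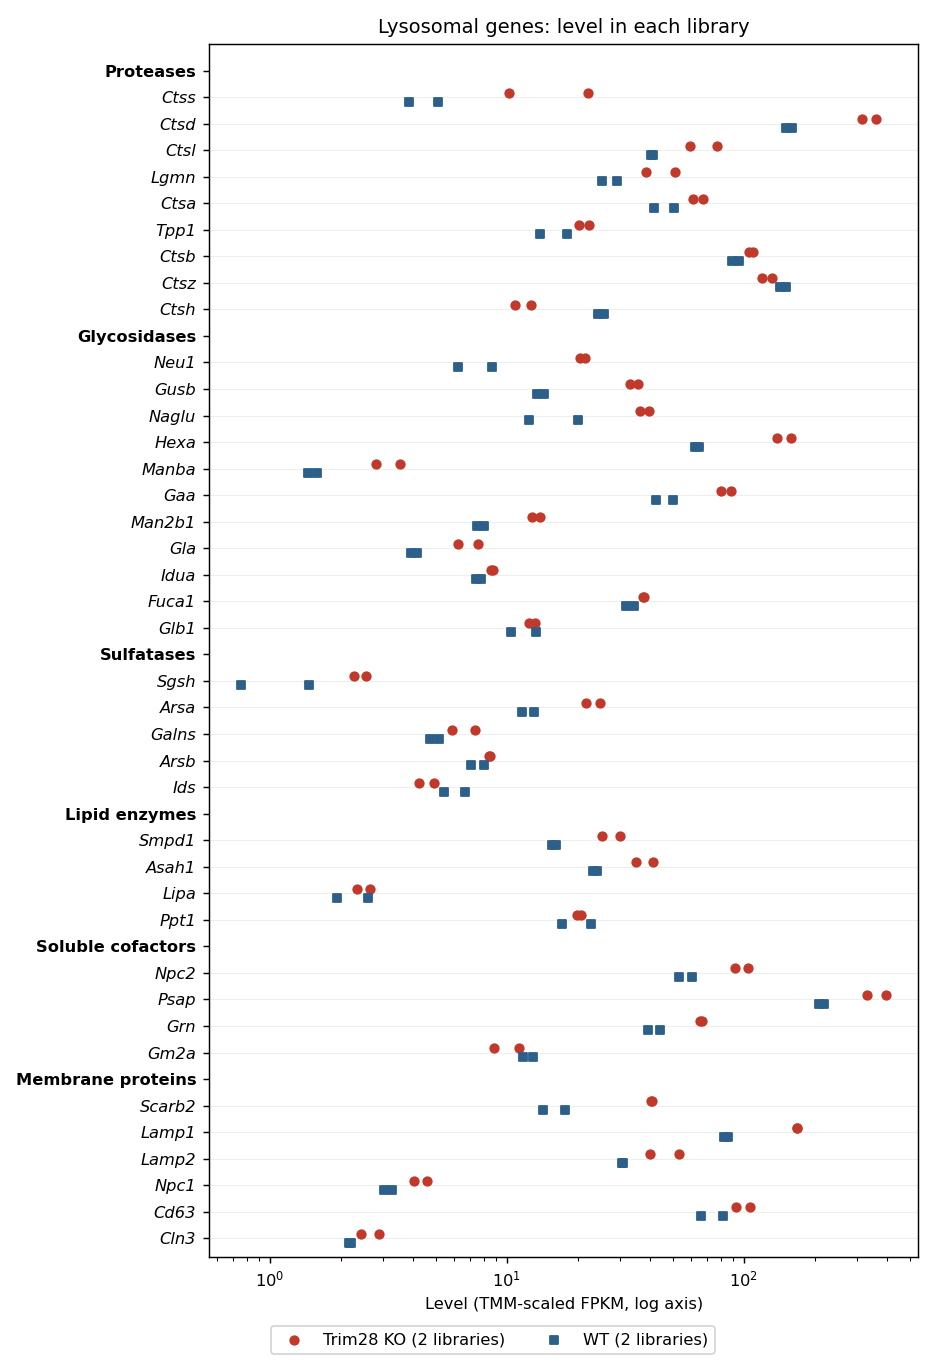
Level of each of the 39 genes in each library, as FPKM on a log axis, grouped by class, with red circles for the 2 Trim28 KO libraries and blue squares for the 2 WT libraries. Red lies to the right of blue in 32 genes, most widely in Ctss, Neu1 and Scarb2, and to the left in Ctsz, Ctsh, Ids and Gm2a.

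The classes differed in how many members were called and in their medians, which were not tested against each other. Glycosidases had the most members called, 8 of 11 higher, with a median log2 fold change of 0.86. Of the 4 soluble cofactors 3 were higher, with a median of 0.72. In the 6 membrane proteins 2 were higher and the median was 0.52. The proteases had 4 higher and 1 lower of 9, with a median of 0.47 and the widest range. Of 5 sulfatases 2 were higher, as were 2 of 4 lipid enzymes, and both medians were 0.42. Leaving out single libraries moved the medians of proteases (0.36 to 0.65), glycosidases (0.85 to 1.01), lipid enzymes (0.36 to 0.55) and membrane proteins (0.48 to 0.66). Across these fits the sulfatase median had the widest range, from 0.25 without Trim28 KO 2 to 0.58 without Trim28 KO 1. That of soluble cofactors ran from 0.66 to 0.80. Without Trim28 KO 2 the membrane protein median (0.661) was above that of soluble cofactors (0.659). The order of the classes below the glycosidases is therefore not fixed.

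**Figure D3:**
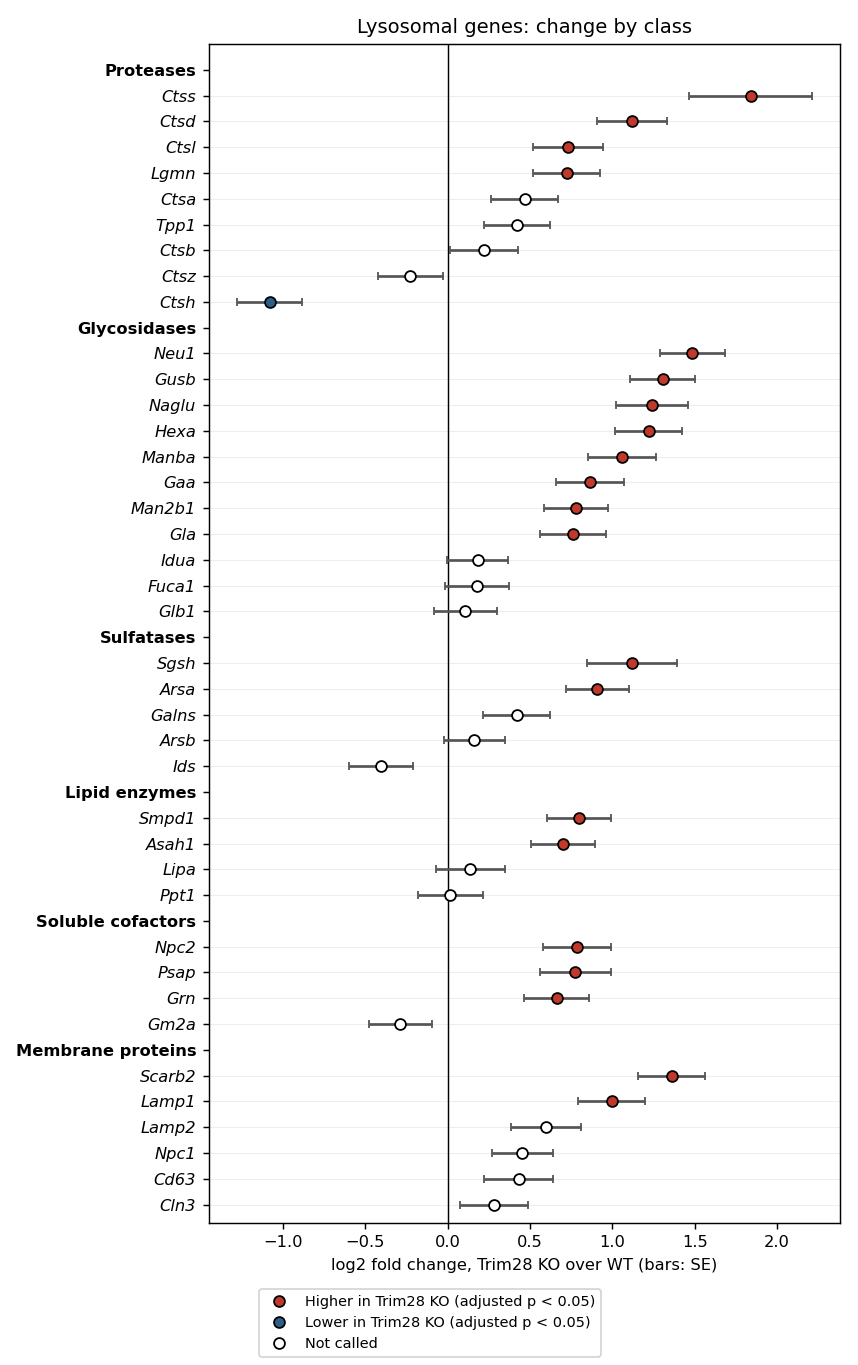
Log2 fold change of each gene, Trim28 KO over WT, with bars of 1 SE, ordered by size within its class. Filled red points are the 21 genes called higher, the blue point is Ctsh, the only gene called lower, and open points are the 17 not called; the open points cluster between -0.40 and 0.60.

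By level per length (FPKM, fragments scaled by library size and by the exonic length in the deposited table), proteases and soluble cofactors supplied most of the transcripts in both genotypes. Summed FPKM of proteases was 828 and 764 in the Trim28 KO libraries and 552 and 555 in the WT libraries. For soluble cofactors it was 509 and 567 in Trim28 KO libraries and 333 and 313 in WT libraries. Glycosidases reached 413 and 401 in Trim28 KO libraries, against 217 and 209 in WT libraries. Membrane proteins summed to 373 and 349 in Trim28 KO and 217 and 202 in WT, and lipid enzymes to 88.6 and 87.9 in Trim28 KO and 59.1 and 63.8 in WT. Sulfatases were the scarcest class, with 42.3 and 47.9 in Trim28 KO libraries and 32.2 and 31.7 in WT libraries. Every class sum was above both WT libraries in both Trim28 KO libraries.

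**Figure D4:**
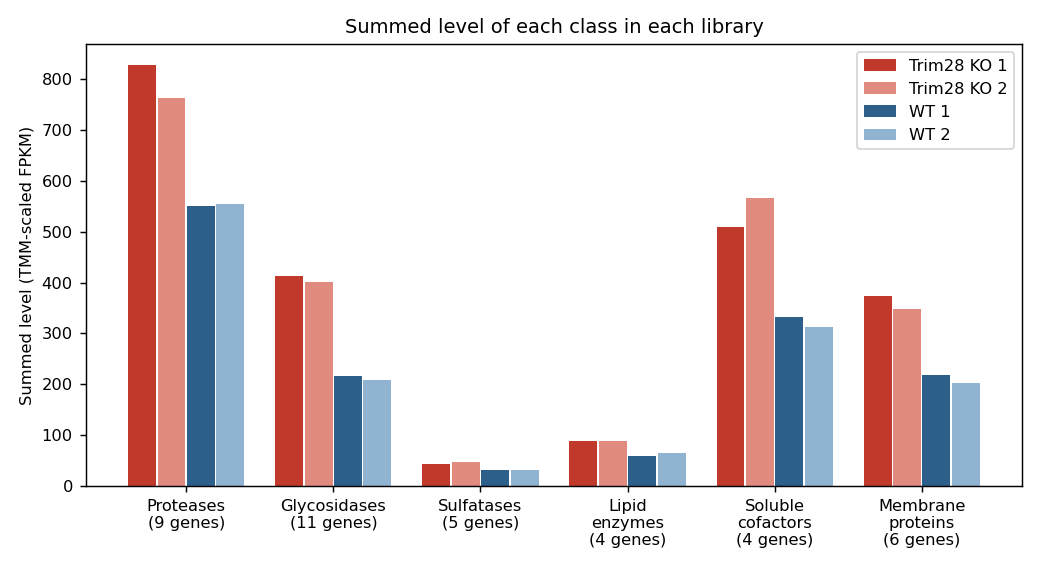
Summed level (FPKM, linear axis from 0) of each class in each library, with red bars for Trim28 KO 1 and 2 and blue bars for WT 1 and 2. Both red bars stand above both blue bars in each of the 6 classes, and sulfatases are lowest throughout.

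Single genes held a large part of these sums. Psap was first in both genotypes, at 364 ± 48.8 FPKM in Trim28 KO and 212 ± 6.6 FPKM in WT (SD, n = 2 each). Ctsd was second, at 338 ± 31.6 FPKM in Trim28 KO and 156 ± 6.35 FPKM in WT. Hexa stood at rank 4 of 39 in Trim28 KO and rank 7 in WT, and Neu1 at rank 23 in Trim28 KO and rank 30 in WT. Ctsh went the other way, with rank 28 in Trim28 KO and rank 16 in WT. Sgsh was last in both, at 2.40 ± 0.192 FPKM in Trim28 KO and 1.11 ± 0.495 FPKM in WT. The exonic length counts every annotated exon of a gene, so FPKM understates genes with many alternative exons.

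Among the proteases the change ran in both directions. Ctsd, the aspartic protease cathepsin D (GRCm38 chr7:142375911-142388038, minus strand), had 847 and 742 CPM in the Trim28 KO libraries, against 376 and 355 CPM in the WT libraries. The genotypes were well apart, with a 2.17-fold higher level in Trim28 KO (log2 fold change 1.12 ± 0.21, edgeR adjusted p = 0.000524). Of its exonic bases 34.4% are shared with the annotated gene Gm49369, which had no count in any library, and reads in shared exons were not counted. Ctsl, the cysteine protease cathepsin L, had 498 and 382 CPM in Trim28 KO and 268 and 263 CPM in WT. Its log2 fold change was 0.73 ± 0.21 (edgeR adjusted p = 0.0172), and Trim28 KO 1 was the highest library. Other annotated genes, none with a count in any library, share 26.85% of the exonic bases of Ctsl. Lgmn, or legumain, which cleaves after asparagine and matures other cathepsins, had 119 and 89.3 CPM in Trim28 KO and 58.3 and 67.8 CPM in WT. Its difference was 0.72 ± 0.20 (log2, edgeR adjusted p = 0.0147), with Trim28 KO 1 again highest.

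Ctss, the cathepsin S best known from macrophages and other antigen-presenting cells (GRCm38 chr3:95526786-95556403, plus strand), had 29.8 and 13.8 CPM in the Trim28 KO libraries and 5.26 and 6.92 CPM in the WT libraries. Trim28 KO 1 was far above Trim28 KO 2, which in turn was above both WT libraries. Its log2 fold change of 1.84 ± 0.37 was the highest of the 39 members (edgeR adjusted p = 0.0136). Without Trim28 KO 1 it was 1.19, and over 12 alternative settings it ran from 1.19 to 2.30 and passed the test each time.

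Ctsh, the aminopeptidase cathepsin H (GRCm38 chr9:90054152-90076089, plus strand), had 57.0 and 48.8 CPM in the Trim28 KO libraries, against 115 and 108 CPM in the WT libraries. It was 2.11-fold higher in WT, with no overlap (log2 fold change -1.08 ± 0.20, edgeR adjusted p = 0.000339), and was the only member called lower. Ctsa, the carboxypeptidase that also protects NEU1 and beta-galactosidase in a complex, had 288 and 316 CPM in Trim28 KO and 197 and 239 CPM in WT. The genotypes did not overlap, but the difference of 0.47 ± 0.20 did not pass the test (edgeR adjusted p = 0.121). Tpp1 (tripeptidyl peptidase), Ctsb and Ctsz had log2 fold changes of 0.42, 0.22 and -0.23 and did not pass either. Ctsb shares 12.8% of its exonic bases with Fdft1 on the other strand, a gene that was itself higher in Trim28 KO (log2 fold change 1.04), and strand was not used in counting. The called proteases that depended on single libraries were Ctsl and Lgmn, whose highest adjusted p over the 12 settings were 0.214 (lowest 0.00293) and 0.234 (lowest 0.00315), both without Trim28 KO 1. Lgmn also missed the threshold without WT 1 (adjusted p = 0.0554), while Tpp1 was called without WT 2 (adjusted p = 0.0428; range over settings 0.0428 to 0.512).

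Of the glycosidases 8 of 11 were higher in Trim28 KO and none lower. Neu1, the sialidase that removes terminal sialic acid (GRCm38 chr17:34931253-34935953, plus strand), had 79.6 and 75.6 CPM in the Trim28 KO libraries, against 32.3 and 23.1 CPM in the WT libraries. That was a 2.80-fold difference with no overlap, the second highest log2 fold change of the members at 1.49 ± 0.20 (edgeR adjusted p = 9.26e-06). Gusb, the beta-glucuronidase that acts on several glycosaminoglycans (GRCm38 chr5:129989011-130003049, minus strand), had 162 and 149.7 CPM in Trim28 KO and 61.1 and 65.1 CPM in WT. Replicates were close in both genotypes, and the log2 fold change was 1.31 ± 0.20 (edgeR adjusted p = 3.83e-05). Naglu, which removes N-acetylglucosamine from heparan sulfate (GRCm38 chr11:101070012-101077672, plus strand), had 96.8 and 106 CPM in Trim28 KO and 52.8 and 32.9 CPM in WT. The WT libraries differed more than the Trim28 KO ones, yet both were well below them (1.24 ± 0.22, edgeR adjusted p = 0.000316). Hexa, the alpha subunit of hexosaminidase A (GRCm38 chr9:59539540-59565109, plus strand), had 314 and 274 CPM in Trim28 KO and 124 and 129 CPM in WT. Its log2 fold change was 1.22 ± 0.20 (edgeR adjusted p = 0.000128), and it was the most abundant glycosidase per length in both genotypes.

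The other called glycosidases act on mannosides, glycogen and galactosides. Manba, the beta-mannosidase of N-glycan breakdown, had 19.5 and 24.6 CPM in Trim28 KO and 10.1 and 11.1 CPM in WT (1.06 ± 0.21, edgeR adjusted p = 0.000733). Gaa, the acid alpha-glucosidase that digests glycogen, had 381 and 423 CPM in Trim28 KO and 239 and 203 CPM in WT (0.86 ± 0.21, edgeR adjusted p = 0.00453). In both genes each Trim28 KO library was above each WT library. Man2b1, the alpha-mannosidase, had 103 and 111 CPM in Trim28 KO and 60.1 and 64.4 CPM in WT (0.78 ± 0.19, edgeR adjusted p = 0.00592). Gla, the alpha-galactosidase whose loss causes Fabry disease, had 24.7 and 20.3 CPM in Trim28 KO and 12.9 and 13.6 CPM in WT (0.76 ± 0.20, edgeR adjusted p = 0.00942). Here too the genotypes did not overlap. Idua, the iduronidase of dermatan and heparan sulfate, had 36.8 and 35.9 CPM in Trim28 KO and 32.8 and 31.2 CPM in WT. Its log2 fold change of 0.18 ± 0.18 was not called, nor were those of Fuca1 (alpha-fucosidase, 0.18) and Glb1 (beta-galactosidase, 0.11). For Glb1 the highest of the 4 libraries was WT 2. Without Trim28 KO 1 Gla missed the threshold (adjusted p = 0.149; lowest 0.00249 over the 12 settings), as did Man2b1 without Trim28 KO 2 (adjusted p = 0.0561; lowest 0.000712).

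The sulfatases, which remove sulfate groups before or between the glycosidase steps, were low in level, and 2 of 5 were called higher. Arsa, the arylsulfatase that acts on sulfatide (GRCm38 chr15:89472476-89477425, minus strand), had 79.2 and 90.8 CPM in the Trim28 KO libraries, against 48.1 and 42.4 CPM in the WT libraries. It was higher in both Trim28 KO libraries (0.91 ± 0.19, edgeR adjusted p = 0.0015) and was the most abundant sulfatase per length. Sgsh, the sulfamidase of heparan sulfate, had 9.99 and 11.2 CPM in Trim28 KO and 6.43 and 3.33 CPM in WT (1.12 ± 0.28, edgeR adjusted p = 0.00711). Its WT libraries were well apart from each other, and the call was lost without Trim28 KO 2 (adjusted p = 0.0989), without Trim28 KO 1 (adjusted p = 0.0653) and without WT 2 (adjusted p = 0.0754), against a lowest adjusted p of 1.24e-05 over the 12 settings. Galns, which desulfates keratan and chondroitin 6-sulfate, had 15.6 and 19.5 CPM in Trim28 KO and 13.6 and 12.6 CPM in WT. Its log2 fold change of 0.42 ± 0.21 was not called (edgeR adjusted p = 0.171), nor were those of Arsb, which acts on dermatan and chondroitin 4-sulfate (0.16), and Ids, which acts on dermatan and heparan sulfate (-0.40). Both Trim28 KO libraries were below both WT libraries for Ids. Exonic bases shared with other genes made up 39.9% in Arsb, 21.6% in Sgsh and 18.8% in Arsa.

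Of the lipid enzymes, the pair that break down sphingolipids were called. Asah1, the acid ceramidase (GRCm38 chr8:41340197-41374773, minus strand), had 139.8 and 118 CPM in the Trim28 KO libraries, against 81.0 and 77.9 CPM in the WT libraries (0.70 ± 0.20, edgeR adjusted p = 0.0143). Smpd1, the acid sphingomyelinase that yields ceramide (GRCm38 chr7:105554360-105558389, plus strand), had 84.2 and 99.8 CPM in Trim28 KO and 53.9 and 51.9 CPM in WT (0.80 ± 0.19, edgeR adjusted p = 0.00497). Neither gene overlapped between genotypes. Without Trim28 KO 1 Asah1 missed the threshold (adjusted p = 0.158; lowest 0.00379 over the 12 settings), and without Trim28 KO 2 Smpd1 did (adjusted p = 0.0734; lowest 0.00077). Lipa, the acid lipase that frees cholesterol from its esters, had 15.8 and 18 CPM in Trim28 KO and 13.0 and 17.6 CPM in WT. Its libraries overlapped, and neither Lipa (0.14 ± 0.21) nor Ppt1, the palmitoyl-protein thioesterase (0.02), was called.

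The soluble cofactors included the most abundant gene of the group. Psap, whose precursor is cut into the saposins that present sphingolipids to their hydrolases (GRCm38 chr10:60277627-60302597, plus strand), had 903 and 1092 CPM in the Trim28 KO libraries, against 595 and 569.8 CPM in the WT libraries (0.78 ± 0.22, edgeR adjusted p = 0.0142). Npc2, which hands cholesterol to NPC1 (GRCm38 chr12:84754562-84773152, minus strand), had 568 and 499 CPM in Trim28 KO and 328 and 290.2 CPM in WT (0.79 ± 0.21, edgeR adjusted p = 0.00996). Grn, the granulin precursor (GRCm38 chr11:102430315-102437048, plus strand), had 232 and 227 CPM in Trim28 KO and 154 and 136 CPM in WT (0.66 ± 0.20, edgeR adjusted p = 0.0218). In all 3 genes each Trim28 KO library was above each WT library. Gm2a, the activator that presents GM2 ganglioside for breakdown, had 36.5 and 46.3 CPM in Trim28 KO and 48.0 and 53.0 CPM in WT. It was below WT in both libraries without passing the test (-0.29 ± 0.19, edgeR adjusted p = 0.332). None of the 3 calls held without WT 2, where the adjusted p was 0.0614 for Psap, 0.0555 for Npc2 and 0.0926 for Grn. Psap also missed the threshold without Trim28 KO 2 (adjusted p = 0.108) and Npc2 without Trim28 KO 1 (adjusted p = 0.0983). Grn missed it without Trim28 KO 1 (adjusted p = 0.113) and without Trim28 KO 2 (adjusted p = 0.0814). The lowest values over the 12 settings were 0.000507, 0.000438 and 0.00387 for Psap, Npc2 and Grn.

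Among the membrane proteins, Scarb2, also called LIMP-2, a receptor and structural protein of the lysosomal membrane (GRCm38 chr5:92441314-92506833, minus strand), had 254 and 257 CPM in the Trim28 KO libraries, against 89.2 and 110.1 CPM in the WT libraries. It was 2.57-fold higher in Trim28 KO, with close Trim28 KO libraries (1.36 ± 0.20, edgeR adjusted p = 3.83e-05). Lamp1, an abundant glycoprotein of the lysosomal membrane (GRCm38 chr8:13159161-13175338, plus strand), had 447 and 449.7 CPM in Trim28 KO and 229 and 220.2 CPM in WT (1.0 ± 0.20, edgeR adjusted p = 0.00114). Its libraries were close within each genotype. Lamp2, its relative with a role in chaperone-mediated autophagy and autophagosome fusion, had 507 and 383 CPM in Trim28 KO and 293 and 295 CPM in WT. Trim28 KO 1 stood above Trim28 KO 2, and the difference of 0.60 ± 0.21 lay just outside the threshold (edgeR adjusted p = 0.053). It was called in 4 of the 12 settings, with adjusted p between 0.0233 with DESeq2 and 0.395 without Trim28 KO 1 (0.0427 without Trim28 KO 2). Npc1, the cholesterol exporter, Cln3, and the tetraspanin Cd63 had log2 fold changes of 0.45, 0.28 and 0.43 and were not called. Cd63 is uncertain, because a transcript of Cd63-ps aligns to it over 858 bases at 98.0% identity and held more counts, with 603 and 578 CPM in Trim28 KO libraries and 468 and 465 CPM in WT libraries.

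For a view by substrate, each gene was placed by hand in a single group, although some act on several kinds of substrate. Hexa and Glb1 were counted for glycosaminoglycans alone, and Neu1 for glycoproteins alone. Grouped in this way, calls were again unequal, and the counts depend on that choice. Of 6 genes for sphingolipid breakdown (Gla, Arsa, Asah1, Smpd1, Psap and Gm2a), 5 were higher in Trim28 KO, with a median log2 fold change of 0.77, and 3 when either Trim28 KO library was left out. Of 5 genes for glycoprotein breakdown, 3 were higher (Manba, Man2b1 and Neu1), with a median of 0.78. Of 9 genes for glycosaminoglycan breakdown, 4 were higher (Hexa, Gusb, Sgsh and Naglu), with a median of 0.42. Galns, Arsb, Ids, Idua and Glb1 of that group were not called. Glycosidases and sulfatases were thus found both among its called genes and among the others.

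Other genes of the lysosome, from lists apart from the members, were tested in the same fit. Of 26 tested other hydrolases (28 listed), 9 were higher and 3 lower in Trim28 KO, with a median log2 fold change of 0.36. These counts fell to 5 higher and 1 lower when Trim28 KO 1 was left out, and to 4 higher and 2 lower when Trim28 KO 2 was. Scpep1, a serine carboxypeptidase, had 272 and 275 CPM in Trim28 KO and 96.4 and 127 CPM in WT (1.29 ± 0.21, edgeR adjusted p = 9.31e-05). Galc, the galactosylceramidase (1.15 ± 0.21), Dnase2a, the acid nuclease (1.09 ± 0.21), and Pla2g15, a phospholipase (0.84 ± 0.19), were also higher, with edgeR adjusted p of 0.000434, 0.000565 and 0.00307. Without Trim28 KO 2, Pla2g15 missed the threshold (adjusted p = 0.0786), and its lowest adjusted p over the 12 settings was 0.000173. Acp5, the tartrate-resistant acid phosphatase, had 7.78 and 6.92 CPM in Trim28 KO, against 40.1 and 40.1 CPM in WT, and was the hydrolase that fell most (-2.45 ± 0.20, edgeR adjusted p = 7.03e-09).

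Of 17 other membrane proteins 1 was higher, Glmp (0.56, edgeR adjusted p = 0.0419), whose call was lost in 7 of the 12 settings (adjusted p from 0.0302 to 0.238). 1 was lower, Slc38a9, an amino acid transporter that signals to mTORC1 (-0.98, edgeR adjusted p = 0.00205), and the median of the 17 was 0.13.

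Of 12 genes that tag or activate hydrolases or sort them to the lysosome, 4 were higher in Trim28 KO and none lower. The median log2 fold change was 0.43. Gnptab, the catalytic and tag-forming subunits of the phosphotransferase, had 42.4 and 53.4 CPM in Trim28 KO and 27.6 and 30.6 CPM in WT (0.72 ± 0.19, edgeR adjusted p = 0.00973). Sumf1, which activates sulfatases (0.68), Nagpa, which uncovers the tag (0.68), and the sorting receptor Sort1 (0.59) had edgeR adjusted p of 0.0116, 0.0326 and 0.042. Each of these 4 calls was lost in at least 1 setting, and without Trim28 KO 2 no gene of the list was called, with adjusted p of 0.15 for Gnptab, 0.084 for Sumf1, 0.0614 for Nagpa and 0.281 for Sort1. The partner subunit Gnptg was not called (0.40, edgeR adjusted p = 0.154).

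The transcription factors of the MiT/TFE family showed no called change. Tfeb had 27.3 and 29.1 CPM in Trim28 KO and 32.6 and 23.1 CPM in WT, and Tfe3 had 42.6 and 42.3 CPM in Trim28 KO and 39.2 and 37.6 CPM in WT. Mitf had 3.66 and 4.37 CPM in Trim28 KO and 4.46 and 4.50 CPM in WT. Their log2 fold changes were 0.02 ± 0.20, 0.14 ± 0.18 and -0.16 ± 0.29, and that of Tfec, at under 1 CPM in each library, was 0.29 ± 0.59. These factors are controlled mainly by phosphorylation and entry into the nucleus, which RNA counts do not measure.

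Markers of other cell types moved with genotype in the same libraries. Of 15 macrophage markers 10 were higher in Trim28 KO and none lower, with a median log2 fold change of 1.32, and none was at 0 in any library. Their summed CPM was 536 and 325 in the Trim28 KO libraries, against 173 and 177 in the WT libraries. C1qa had 88.2 and 50.2 CPM in Trim28 KO and 16.1 and 14.1 CPM in WT, and Cx3cr1, Fcgr1 and Adgre1 had log2 fold changes of 1.94, 1.99 and 1.42 (edgeR adjusted p = 3.54e-06, 4.46e-05 and 0.000115). Macrophages are rich in lysosomes, and no member is on the marker list. Trim28 KO 1 was the library with the most of these markers. The members' median log2 fold change was 0.58 without it and 0.68 without Trim28 KO 2. The part of macrophages in the members' difference was not tested.

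In most of these markers the Trim28 KO libraries differed in the same direction, and in the lysosomal genes they differed in both directions. Macrophage markers were higher in Trim28 KO 1 than in Trim28 KO 2 in 14 of 15 cases, with a median log2 ratio of 0.61. Of the 39 members 17 were higher in Trim28 KO 1, with a median log2 ratio of -0.02, in which opposite directions cancel. The median ratio was 0.19 for proteases, 0.04 for glycosidases and -0.20 for sulfatases, and all 5 sulfatases were higher in Trim28 KO 2. Ctss, Lgmn, Ctsl and Lamp2 were among the members higher in Trim28 KO 1.

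**Figure D5:**
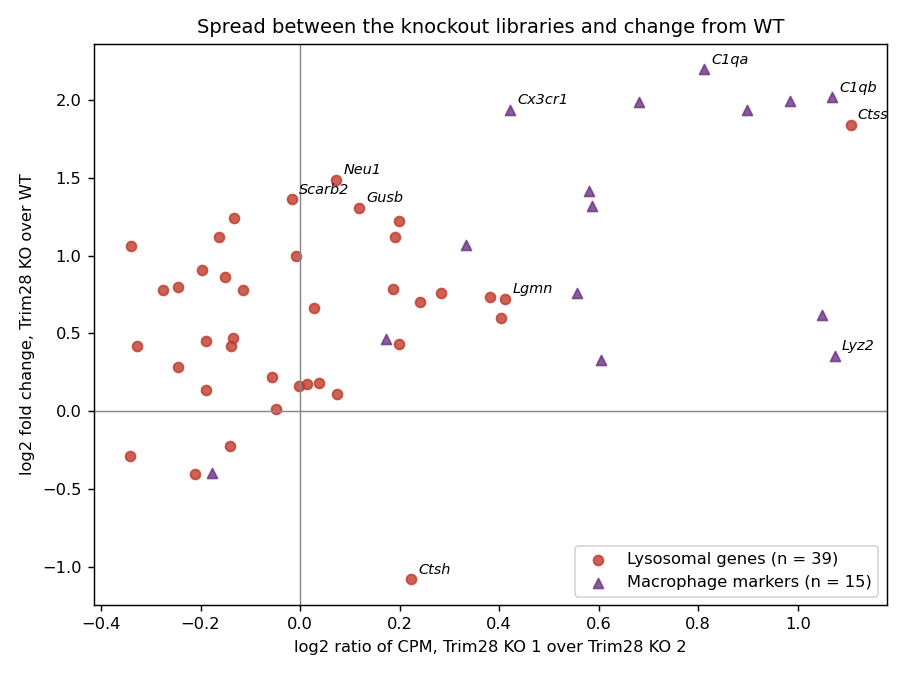
Each gene's log2 fold change, Trim28 KO over WT (y axis), against its log2 ratio of CPM between Trim28 KO 1 and Trim28 KO 2 (x axis), for the 39 lysosomal genes (red circles) and 15 macrophage markers (purple triangles). The macrophage markers lie to the right of 0 in 14 of 15 cases, while the lysosomal genes lie on both sides; both axes share the Trim28 KO libraries, so no relation is read from the plot.

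Osteoclast markers moved the opposite way. All 10 that were tested (11 listed) were lower in Trim28 KO, with summed CPM of 245 and 252 in Trim28 KO libraries and 1083 and 926 in WT libraries. When Trim28 KO 2 was left out 6 were lower. Mmp9 and Atp6v0d2, a subunit of the osteoclast proton pump, had log2 fold changes of -3.56 and -2.79. Of the 3 other hydrolases that were lower, 2, Acp5 and Ctsk, are on that list, and the other is the cathepsin Ctsf (-0.61 ± 0.20, edgeR adjusted p = 0.0353). Ctsk, the main collagen-degrading protease of osteoclasts, had 173 and 158 CPM in Trim28 KO and 279 and 278 CPM in WT (-0.75 ± 0.20, edgeR adjusted p = 0.0105). Ctsk missed the threshold without Trim28 KO 1 (adjusted p = 0.0619) and without Trim28 KO 2 (adjusted p = 0.0981), with a lowest adjusted p of 0.000976 over the 12 settings. Ctsf lost its call without Trim28 KO 1 (adjusted p = 0.44), with DESeq2 and with limma-voom, and its lowest adjusted p was 0.0144. Osteoblast markers were lower in 5 of 6 cases, erythroid markers in all 4 tested, and Schwann cell markers in 3 of 4, or 1 of 4 without Trim28 KO 2 or without WT 2. Of 7 tested neutrophil markers 3 were lower. None of 6 was lower without WT 2 and 8 of 10 were without WT 1, against 1 of 10 when either Trim28 KO library was left out. Summed over the 10 listed, their CPM was 3.14 and 2.31 in the Trim28 KO libraries, against 4.89 in WT 1 and 29.8 in WT 2. Of 6 muscle markers 1 was higher and 1 lower, and no mast cell (5 tested), endothelial (5) or lymphocyte (1) marker was called. When WT 1 was left out, 2 muscle markers were higher and 1 mast cell marker lower. With Trim28 KO 2 left out 2 muscle markers were higher and none lower, and with Trim28 KO 1 left out none was higher. Whether these cells account for any member's value was not tested.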

How the data were processed

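The authors deposited 1 table, whole-number counts for each gene name in the 4 libraries. Per the file headers, featureCounts 1.6.4 counted read pairs over the exons of GENCODE M23 (mouse mm10). No setting for strand, for reads with several placements or for overlapping genes appears in that header, so its defaults applied. Subread 1.6.4 and edgeR are named as well, per the submitters' processing notes, and the aligner is not given in the sources used here. Reads with several placements, or within exons of more than 1 gene, were therefore not counted, and a gene and its antisense partner cannot be told apart.

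The default filterByExpr of edgeR left 16639 of 55228 genes. Trim28 KO was set against WT with the quasi-likelihood test of edgeR 4.0.16 (R 4.3.3, limma 3.58.1). Factors were trimmed means of M-values (TMM), dispersions were robust and the model held genotype alone. Benjamini-Hochberg adjustment ran over all genes tested, and "higher", "lower", "called", "rose" and "fell" refer to an adjusted p under 0.05. Errors of log2 fold changes are standard errors, taken as the size divided by the square root of F. CPM and FPKM were computed here from the counts with TMM-scaled library sizes. A floor of 3 counts covers counting error only.

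The members, the classes, the lists of other genes and the cell type markers were chosen with earlier results of these data known. Values in every library were given for each called member, for the member with the highest level per length in each class and for the uncalled member with the largest change in each class. Up to 6 called genes of each other lysosomal list and up to 4 of each marker list were named by smallest p, and Ctsk, Ctsf, Gnptg, Col2a1, Cnmd, Fdft1, Gm49369 and Cd63-ps were named after their values were seen. Fewer marker genes were named than this allows, and a gene chosen by p-value is not reported here.

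Libraries of a genotype differed by more than counting noise (chi-square per degree of freedom 24.6 in Trim28 KO and 30.6 in WT). Libraries with the same replicate number did not deviate together (correlation -0.11), so numbers were not used as pairs. As alternatives, factors were taken by relative log expression (RLE) or upper quartile, the filter was dropped or raised to 5 CPM in 2 libraries, DESeq2 1.42.0 or limma-voom was used, the replicate number was added as a block, and each library was left out in turn. A crossed replicate block was added after the data were seen. Positions come from GENCODE M21, whose GRCm38 is the assembly called mm10, and promoter windows from RefSeq on GRCm38.p6.

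The test was tried on simulated counts with known changes. Drawn with the fitted dispersion trend, 5.56% of calls were false, and drawn with each gene's own dispersion 11.11% were. Of simulated 2-fold changes 70% and 60% were called, in that order, and of 4-fold changes 100% in both. The first setting was added after the second had been run. Few genes were changed in the simulation, all of them well counted, and each setting was drawn a single time. In the data 17.4% of tested genes were called, so these rates need not hold there.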

Additional observations from a re-analysis of the deposited data

How the results depend on the processing

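The number of members called higher was 21 or 22 under RLE factors, upper-quartile factors, no filter, the stricter filter, DESeq2, limma-voom, the replicate block and the crossed block, and 14 to 20 when single libraries were left out. 1 member was called lower in each of these. Over all genes, the number called higher ran from 702 to 1442 and the number called lower from 572 to 1406 when single libraries were left out, the lowest of both without Trim28 KO 1. The member median ran from 0.58 to 0.75, with 0.36 to 0.65 for proteases, 0.85 to 1.01 for glycosidases, 0.25 to 0.58 for sulfatases, 0.36 to 0.55 for lipid enzymes, 0.66 to 0.80 for soluble cofactors and 0.48 to 0.66 for membrane proteins. Each of these fits has fewer samples, and the lone library of a genotype is assumed to vary like the others. With the replicate block 1477 genes were higher and 1444 lower, and 21 members were higher. With the crossed block the counts were 1593 and 1747. The replicate numbers do not pair the libraries. Of 22 called members 12 kept the call in the 12 settings, 10 lost it in at least 1 and 2 others gained it. Among the genes followed through the settings, signs turned for some that were not called: with upper-quartile factors and the stricter filter Ppt1 (-0.0063 and -0.012) and Tfeb (-0.0023 and -0.0091), and with single libraries left out Glb1 (-0.036 to 0.33), Lipa (-0.042 to 0.40), Ppt1 (-0.15 to 0.26), Tfeb (-0.18 to 0.31) and Tfec (-0.61 to 0.85). The cause was not tested. The stricter filter gave no value for Mitf or Tfec. With 2 libraries a genotype the standard errors of the members, 0.183 to 0.371 on the log2 scale, limit the size of change that could be called.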
